A study of Mus musculus with 12 samples.

Results

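The 10 genes described here are markers of inhibitory neurons and unipolar brush cells of the mouse cerebellar cortex, taken by name out of the 56941 genes in the count tables. Kit, Sorcs3, Nxph1 and Prkcd stand for molecular layer interneurons, Grm2, Slc6a5 and Lgi2 for Golgi cells, Slc32a1 for inhibitory neurons in general, and Eomes and Lmx1a for unipolar brush cells. All 10 passed the filter on low counts that left 20341 genes for testing, and the rule that took them sets no threshold on a measured value. Bulk RNA does not show which cell a transcript came from, so the cell type names are those of the marker lists and not of cells seen in these data.

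The samples were the cerebella of 12 mice aged 16 weeks, with 3 mice in each of 4 groups and 1 library per mouse. SCA1 mice carried 1 Atxn1 allele with 154 glutamine codons and 1 normal mouse allele with 2 (154Q/2Q), and WT mice were their C57BL/6J littermates. The expansion sits in the mouse's own gene, so no promoter or Cre line restricts it to a cell type. The WT exercise and SCA1 exercise mice lived alone with a running wheel for 12 weeks from the age of 4 weeks, whereas the WT sedentary and SCA1 sedentary mice had no wheel and were housed in groups, so running and solo housing cannot be told apart. The sex of each mouse was not given in the labels. Atxn1 itself was counted in all libraries at 147 to 193 CPM (counts per 1000000 counts of a library), and the counts do not separate its 2 alleles.

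As background, the inhibitory interneurons of the cerebellar cortex shape what Purkinje cells and granule cells pass on. Basket and stellate cells of the molecular layer release GABA onto Purkinje cells, and Golgi cells of the granular layer release GABA, glycine or both onto granule cells. Unipolar brush cells differ from both, since they are excitatory, use glutamate and sit in the granular layer, mostly in the vestibular lobules.

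The libraries held between 20556802 and 32127508 counted read pairs on the reverse strand. The libraries of SCA1 sedentary mouse 16 and SCA1 exercise mouse 55 stood apart from the other 10. Multimapping reads were 6.38% and 6.33% of these 2 libraries, against at most 3.46% elsewhere. The summed level of 9 brainstem genes, mainly Hox genes of the hindbrain and genes of noradrenergic neurons, was 35.4 CPM in mouse 16 and 51.9 CPM in mouse 55 and lay between 0.221 and 12.7 CPM in the others. Of the 9, 7 were above all other libraries in both. The 4 genes of the cerebellar nuclei summed to 221 and 119 CPM in these 2 libraries and to 26.0 to 78.1 CPM in the others. Results that rest on mice 16 and 55 are therefore given with and without them. These mice were set apart by these measures and not by the levels of the 10 markers. The methods of the study name a pair of RNA samples of lower integrity whose libraries were fragmented and amplified with other settings. Which libraries these are is not given in the sources used here, so the part of RNA integrity and library preparation in the values of mice 16 and 55 was not tested.

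With all 12 libraries, none of the 10 markers passed the test in any comparison. The test was edgeR's quasi-likelihood test over all 20341 genes, and a gene was called where its p after Benjamini-Hochberg adjustment was under 0.05 and its log2 fold change (log2FC) exceeded 0.5 in either direction. DESeq2 also called 0 of the 10 in any comparison. Of 35116 genes it called 0.578% in SCA1 sedentary against WT sedentary mice, 0.515% in SCA1 against WT mice over both activity groups and 0.182% in WT exercise against WT sedentary mice. It called 0.0171% with exercise over both genotypes, 0.0114% in SCA1 against WT among exercise mice, 0.0057% for the interaction of genotype and exercise, and 0.00285% with exercise in SCA1 mice. By edgeR, between SCA1 sedentary and WT sedentary mice 0.0344% of all genes were called, and between SCA1 and WT mice over both activity groups 0.118%. For the other 5 (SCA1 against WT among exercise mice, exercise against sedentary within WT, within SCA1 and over both genotypes, and the interaction of genotype and exercise), 0% of all genes were called. With mice 16 and 55 left out, 1 of the 10 markers (Eomes) was called in SCA1 against WT over both activity groups, beside 0.693% of all genes. The markers then gave 0 calls in SCA1 against WT among sedentary mice, beside 1% of all genes, among exercise mice, beside 0.181%, and with exercise in WT mice, beside 0.312%, and 0 in the remaining 3, beside 0%.

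At an unadjusted p under 0.05, the markers gave 2 genes in SCA1 sedentary against WT sedentary (Slc6a5 and Eomes), beside 10.1% of all genes, and the same 2 in SCA1 against WT over both activity groups, beside 9.81%. They gave 0 in SCA1 exercise against WT exercise, beside 2.93%, and Lmx1a alone in WT exercise against WT sedentary, beside 4.69%. Eomes was the single one in SCA1 exercise against SCA1 sedentary, beside 2.17%. Kit, Eomes and Lmx1a were the 3 in exercise against sedentary over both genotypes, beside 3.54%, and there were 0 for the interaction, beside 3.78%. No marker separated without overlap in SCA1 exercise against SCA1 sedentary mice, beside 4.5% of all genes, in SCA1 against WT over both activity groups, beside 1.17%, or in exercise against sedentary over both genotypes, beside 0.128%. The median log2FC of the 10 in SCA1 against WT mice was 0.17 over both activity groups, beside 0.01 for all genes, and was -0.01 without mice 16 and 55.

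**Figure D1:**
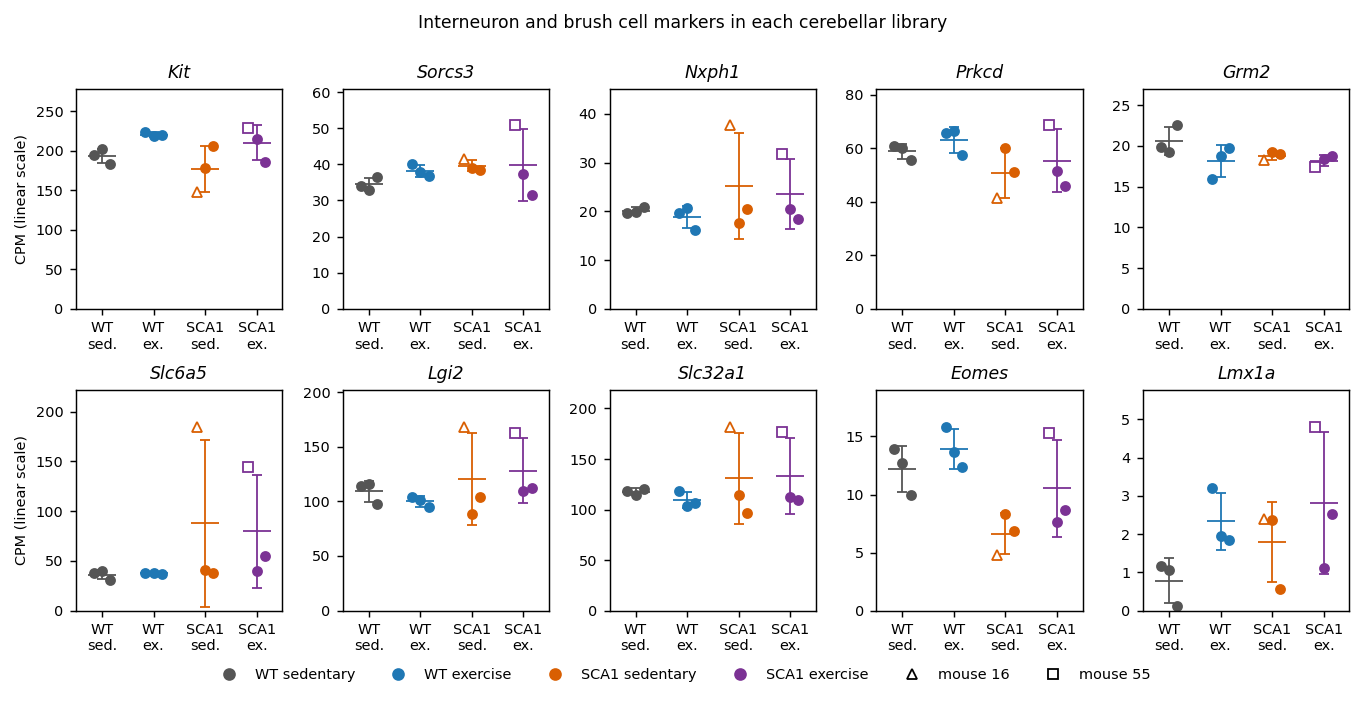
CPM of the 10 markers (linear axes from 0) in the 2 WT and 2 SCA1 groups (sed., sedentary, and ex., exercise), with 1 point per mouse, a horizontal line at the group mean and bars of 1 SD over 3 mice. Mouse 16 (open triangle) and mouse 55 (open square) carry the high values of Slc6a5, 184 and 144 CPM, whereas Eomes was low in every SCA1 mouse other than mouse 55, at 4.80 to 8.66 CPM.

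In WT sedentary mice the markers spanned a wide range of levels. Per kilobase of exon, Slc32a1 was the highest at 23.5 ± 0.648 CPM (SD, n = 3), followed by Kit at 20.4 ± 0.954 and Lgi2 at 15.7 ± 1.41. Prkcd, Slc6a5 and Sorcs3 followed at 5.19 ± 0.247, 5.02 ± 0.678 and 4.83 ± 0.255 CPM per kilobase, and neighbours in this order of 3 overlapped between mice. Nxph1 was at 3.78 ± 0.123 CPM per kilobase. Eomes at 2.93 ± 0.485 and Grm2 at 2.90 ± 0.244 overlapped as well. Lmx1a was by far the lowest at 0.220 ± 0.164 CPM per kilobase and was counted between 3 and 121 times per library, so its values carry the largest counting error of the 10.

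Among the molecular layer interneuron markers, Kit encodes the receptor tyrosine kinase for stem cell factor and lies on chromosome 5 (ENSMUSG00000005672, 75735576 to 75817404, GRCm39). Kit was at 194, 202 and 184 CPM in WT sedentary mice 116, 117 and 192, and at 224, 218 and 219.7 CPM in WT exercise mice 121, 197 and 201. Each WT exercise mouse was thus above each WT sedentary mouse. In SCA1 sedentary mice 16, 194 and 195 Kit was at 148, 178 and 206 CPM, and in SCA1 exercise mice 55, 122 and 198 at 229, 215 and 186 CPM. The SCA1 groups spread over both WT groups, with the lowest Kit level of the study in mouse 16 and the highest in mouse 55.

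The log2FC of Kit between WT exercise and WT sedentary mice was 0.19 (SE 0.120, edgeR adjusted p = 0.958), and the two-sided exact permutation p was 0.1, the smallest that 3 mice against 3 can give. Groups without overlap were seen for 3 of the 10 markers in this comparison, all higher with exercise (Kit, Sorcs3 and Lmx1a), beside 21.2% of all genes in either direction and 10.1% higher. Over both genotypes Kit had a log2FC of 0.22 with exercise (SE 0.0849, edgeR adjusted p = 0.945, exact permutation p = 0.0173), with overlapping groups. Without mice 16 and 55 this value was 0.13 (SE 0.0667, edgeR adjusted p = 0.697). Between genotypes the log2FC of Kit was -0.10 over both activity groups (SE 0.0848, edgeR adjusted p = 0.717).

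Kitl encodes the ligand of Kit and is made by Purkinje cells. It was at 122, 160.0 and 116 CPM in WT sedentary, 138, 128 and 138 CPM in WT exercise, 79.7, 75.6 and 96.3 CPM in SCA1 sedentary, and 112, 131 and 111 CPM in SCA1 exercise mice, in the order of mice used above. All 3 SCA1 sedentary mice, mouse 16 among them, were below the mice of the other groups. The log2FC of Kitl was -0.66 in SCA1 sedentary against WT sedentary mice (SE 0.134, edgeR adjusted p = 0.135) and -0.19 in SCA1 exercise against WT exercise mice (SE 0.134, adjusted p = 0.960), and neither passed the test.

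**Figure D2:**
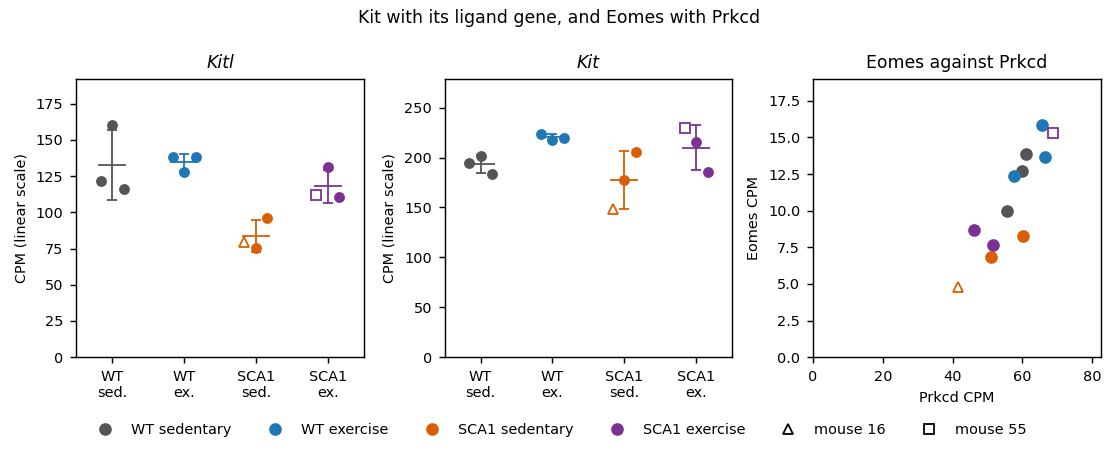
CPM of Kitl and Kit by group (1 point per mouse, horizontal line at the mean, bars of 1 SD over 3 mice, axes from 0) and Eomes against Prkcd CPM with 1 point per library. Kitl was at 75.6 to 96.3 CPM in SCA1 sedentary mice and at 111 CPM or more in all others, and Eomes and Prkcd were both at their lowest in mouse 16 (4.80 and 41.4 CPM).

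Sorcs3, a sorting receptor of the Vps10p family, lies on chromosome 19 (ENSMUSG00000063434, 48194464 to 48793944). It was at 34.0, 33.0 and 36.5 CPM in WT sedentary, 40.1, 37.8 and 36.9 CPM in WT exercise, 41.4, 38.99 and 38.4 CPM in SCA1 sedentary, and 50.8, 37.4 and 31.5 CPM in SCA1 exercise mice. The WT sedentary mice were below every WT exercise and every SCA1 sedentary mouse, and SCA1 exercise mice 55 and 198 held the highest and the lowest values of the study. The log2FC was 0.20 in SCA1 sedentary against WT sedentary mice (SE 0.145, edgeR adjusted p = 0.678) and 0.15 in WT exercise against WT sedentary mice (SE 0.145, edgeR adjusted p = 0.958). Neither passed the test.

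Prkcd, which encodes protein kinase C delta, lies on chromosome 14 (ENSMUSG00000021948, 30317307 to 30349238). It was at 61.0, 60.03 and 55.7 CPM in WT sedentary, 65.6, 66.5 and 57.7 CPM in WT exercise, 41.4, 60.1 and 51.1 CPM in SCA1 sedentary, and 68.7, 51.6 and 46.0 CPM in SCA1 exercise mice. Mouse 16 was the lowest and mouse 55 the highest of the 12, as for Kit. The log2FC over both activity groups was -0.20 in SCA1 mice (SE 0.111, edgeR adjusted p = 0.573). Leaving out mice 16 and 55 gave -0.21 (SE 0.0761, adjusted p = 0.261), and neither passed the test. In SCA1 exercise against WT exercise mice it was -0.19 with all libraries (SE 0.157, edgeR adjusted p = 0.960), with overlapping groups. Without mice 16 and 55 it was -0.36 (SE 0.108, unadjusted p = 0.00482, edgeR adjusted p = 0.341), and the 2 SCA1 exercise mice then lay below all 3 WT exercise mice. They did so for 14.3% of all genes.

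Nxph1 encodes neurexophilin 1, a secreted ligand of neurexins, and lies on chromosome 6 (ENSMUSG00000046178, 8948431 to 9249616). It was at 16.2 to 20.9 CPM in 10 libraries and at 37.7 and 31.7 CPM in mice 16 and 55. The log2FC of SCA1 against WT mice over both activity groups was 0.33 with all libraries (SE 0.186, edgeR adjusted p = 0.577) and -0.0017 without these 2 mice (SE 0.0903).

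The 5 other genes known from molecular layer interneurons gave no call, and their median log2FC was -0.07 in SCA1 sedentary against WT sedentary mice, beside 0.02 for all genes. Pvalb, which encodes parvalbumin of interneurons and Purkinje cells, had the largest difference, -0.54 (SE 0.162, adjusted p = 0.297), followed by the glutamate receptor gene Grm8 at 0.51 (SE 0.215, adjusted p = 0.463). Grm8 was at 21.8 CPM in mouse 16, 13.5 and 12.7 CPM in SCA1 sedentary mice 194 and 195, and 10.8 to 11.5 CPM in WT sedentary mice. Without mice 16 and 55 Pvalb fell by 0.63 and passed the test (edgeR adjusted p = 0.0322), where 1% of all genes were called.

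The markers Slc6a5, Slc32a1 and Lgi2 set mice 16 and 55 apart from the other 10 libraries, whereas the Golgi cell marker Grm2 did not. Slc6a5 encodes the neuronal glycine transporter GlyT2, which loads the endings of Golgi cells and of brainstem and spinal inhibitory neurons with glycine, and lies on chromosome 7 (ENSMUSG00000039728, 49559894 to 49613604). It was at 37.7, 40.0 and 30.6 CPM in WT sedentary, and at 37.9, 38.2 and 37.0 CPM in WT exercise mice. In SCA1 sedentary mice it was at 184, 40.8 and 37.9 CPM, and in SCA1 exercise mice at 144, 39.6 and 54.8 CPM. Mouse 16 was 4.85 times and mouse 55 was 3.78 times the median of the other 10, and the next highest value was that of SCA1 exercise mouse 198.

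The log2FC of Slc6a5 in SCA1 against WT mice over both activity groups was 1.18 (SE 0.401, unadjusted p = 0.0120, edgeR adjusted p = 0.368, exact permutation p = 0.0173). Without mice 16 and 55 it was 0.24 (SE 0.0975, edgeR adjusted p = 0.358, exact permutation p = 0.0476). Without mouse 16 alone it was 0.60, and without mouse 55 alone 0.80. In SCA1 exercise against WT exercise mice Slc6a5 was higher in each SCA1 mouse, with a log2FC of 1.08 (SE 0.566, edgeR adjusted p = 0.960) that was 0.33 without mouse 55 and mouse 16 (SE 0.137, adjusted p = 0.642). Groups without overlap were seen there for 2 of the 10 markers (Slc6a5 and Lgi2, both higher), beside 14.2% of all genes in either direction and 7.32% higher.

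The sequences before the starts of Slc6a5 and Eomes are shown because these 2 genes held the largest genotype differences among the well-counted markers. The 250 bases upstream of each start come from RefSeq on GRCm38.p6, a different build from that of the counts, and both are on the plus strand, at chr7:49910049-49910298 for Slc6a5 and chr9:118477939-118478188 for Eomes. Capitals mark CpG pairs, of which the Slc6a5 window holds 11 and the Eomes window 8, beside a median of 6 over all 32851 windows of this length. RefSeq lists a second Slc6a5 start, whose window at chr7:49911450-49911699 (not printed) holds 7 CpG pairs with a GC content of 43.6%.
Slc6a5: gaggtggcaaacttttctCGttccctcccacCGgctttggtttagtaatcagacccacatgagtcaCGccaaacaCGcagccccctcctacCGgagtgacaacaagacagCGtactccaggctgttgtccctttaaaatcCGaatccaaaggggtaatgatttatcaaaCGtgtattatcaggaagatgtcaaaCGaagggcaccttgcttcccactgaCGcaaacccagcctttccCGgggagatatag
Eomes: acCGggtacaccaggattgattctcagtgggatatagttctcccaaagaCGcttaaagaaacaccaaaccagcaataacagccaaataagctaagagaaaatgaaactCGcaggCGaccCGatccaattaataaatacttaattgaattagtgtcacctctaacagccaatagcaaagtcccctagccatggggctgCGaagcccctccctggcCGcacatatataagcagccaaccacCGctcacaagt
GC content of the printed windows was 50.4% and 46.4%, beside a median of 52.4%. The octamers TGAATGAA and TGAATGGA, to which the ataxin-1 partner Capicua binds, were searched on both strands. They occurred in 0 of the 13 windows of the 10 markers and in 2.07% of all windows, which says only that these letters are not in these windows.

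Slc32a1 encodes the vesicular transporter of GABA and glycine and lies on chromosome 2 (ENSMUSG00000037771, 158452605 to 158464883). It was at 118, 114 and 121 CPM in WT sedentary, 119, 103 and 106 CPM in WT exercise, 182, 115 and 96.5 CPM in SCA1 sedentary, and 176, 113 and 109.7 CPM in SCA1 exercise mice. Outside mice 16 and 55 all values lay between 96.5 and 121 CPM, and the groups overlapped in every comparison of groups made here. The log2FC over both activity groups was 0.22 with all libraries (SE 0.155, edgeR adjusted p = 0.655) and -0.05 without these 2 mice (SE 0.0632).

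Lgi2, a secreted synaptic protein related to the epilepsy gene product LGI1, lies on chromosome 5 (ENSMUSG00000039252, 52690631 to 52723804). It was at 114, 116 and 97.9 CPM in WT sedentary, 104, 101 and 94.4 CPM in WT exercise, 168, 88.6 and 104 CPM in SCA1 sedentary, and 163, 109 and 112 CPM in SCA1 exercise mice. Mice 16 and 55 were again above all others, at 1.61 and 1.56 times the median of the other 10. The log2FC over both activity groups was 0.25 with all libraries (SE 0.150, edgeR adjusted p = 0.595) and -0.0021 without them (SE 0.0688). All 3 SCA1 exercise mice were above the WT exercise mice, with a log2FC of 0.36 (SE 0.212, adjusted p = 0.960) and of 0.16 without mice 16 and 55 (SE 0.0969, adjusted p = 0.831).

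Grm2, the glutamate receptor mGluR2 that marks most Golgi cells, lies on chromosome 9 (ENSMUSG00000023192, 106520294 to 106533870). It was at 19.9, 19.3 and 22.5 CPM in WT sedentary, 15.9, 18.8 and 19.7 CPM in WT exercise, 18.2, 19.2 and 19.0 CPM in SCA1 sedentary, and 17.4, 18.4 and 18.8 CPM in SCA1 exercise mice. Unlike Slc6a5 and Lgi2 it was not high in mice 16 and 55, which were at 0.954 and 0.912 times the median of the other libraries. The 3 SCA1 sedentary mice were below the 3 WT sedentary mice by a narrow margin, with a log2FC of -0.13 (SE 0.115, edgeR adjusted p = 0.732) that was -0.06 without WT sedentary mouse 192. Groups without overlap were seen in that comparison for 3 of the 10 markers (Sorcs3 higher, Grm2 and Eomes lower), beside 11.4% of all genes.

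In all, 5 of the 10 markers (Sorcs3, Nxph1, Slc6a5, Lgi2 and Slc32a1) were higher in both mouse 16 and mouse 55 than in each of the other 10 libraries, beside 17.1% of all genes. None was lower in both, beside 13.9% of all genes. The same 2 libraries held 3.21 and 4.56 CPM of Hoxb4 and 8.33 and 9.92 CPM of Hoxb5, hindbrain genes that did not exceed 0.97 CPM elsewhere. SCA1 sedentary mouse 194 had the third highest brainstem sum (12.7 CPM), 40.8 CPM of Slc6a5 and the lowest Lgi2 level of all. Its sum was mostly Dbh at 4.93 CPM and Slc6a2 at 6.50 CPM. With Hoxb4 at 0.0425 CPM and Hoxb5 at 0 CPM, it differed in makeup from the sums of mice 16 and 55. The part of brainstem or nuclear tissue in the levels of the 5 markers was not tested.

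**Figure D3:**
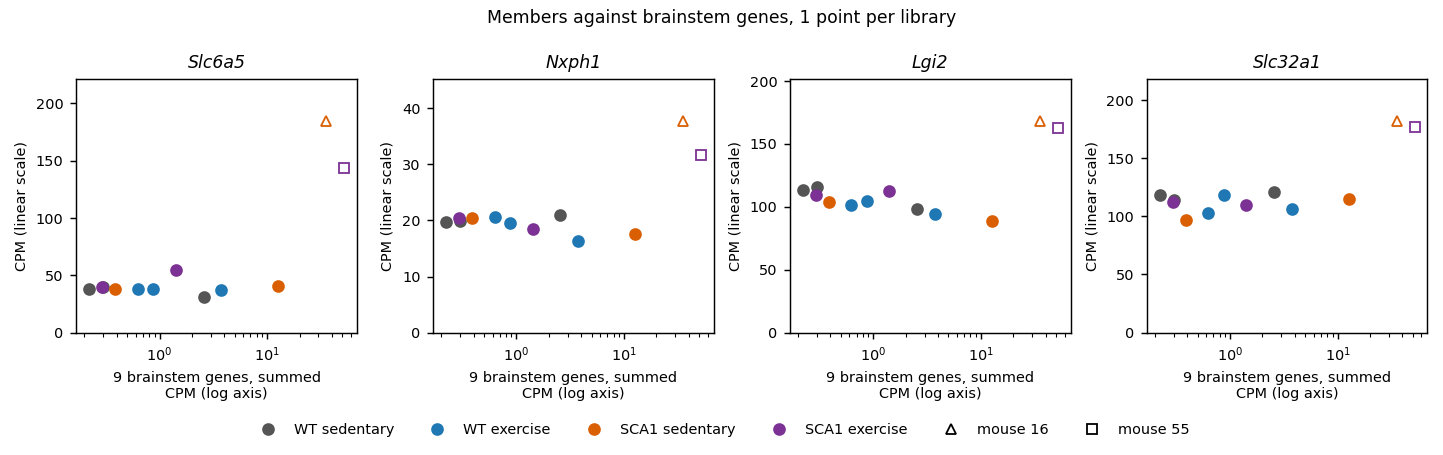
CPM of Slc6a5, Nxph1, Lgi2 and Slc32a1 (linear axes from 0) against the summed CPM of 9 brainstem genes (log axis), with 1 point per library coloured by group. Mouse 16 (open triangle, 35.4 CPM) and mouse 55 (open square, 51.9 CPM) lie at the upper right in each panel, and the other 10 libraries lie at or below 12.7 CPM.

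The 6 other genes reported in Golgi cells gave no call, and their median log2FC in SCA1 against WT mice was 0.86 over both activity groups with all libraries and -0.05 without mice 16 and 55. Sst, the gene of the peptide somatostatin, had the largest difference at 2.29 (SE 0.966, adjusted p = 0.478). It was at 26.7 CPM in mouse 16, 15.9 CPM in mouse 55 and 10.3 CPM in WT sedentary mouse 192, and at no more than 3.74 CPM elsewhere. Htr2a, a serotonin receptor gene, followed at 1.10 (adjusted p = 0.407), with 9.004 CPM in mouse 16. WT sedentary mouse 192 also had the highest level of the forebrain-rich gene Nrgn, 43.1 CPM. The 8 midbrain, thalamus and forebrain genes, 5 of them tested, gave no call and summed to 72.5 CPM in mouse 16, 58.5 CPM in mouse 192, 43.0 CPM in mouse 55 and 24.3 to 34.5 CPM in the others.

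Of 9 genes of GABA synthesis, uptake and the interneuron lineage, 0 were called, and the median log2FC was 0.02 in SCA1 sedentary against WT sedentary mice and 0.03 over both activity groups. The lineage genes Lhx1 and Lhx5 had the largest differences in the sedentary comparison, -0.47 (SE 0.129, adjusted p = 0.258) and -0.41 (adjusted p = 0.503), and both are also expressed by Purkinje cells.

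The brush cell marker Eomes was the 1 marker that passed the test in any setting, and it did so once mice 16 and 55 were left out. Eomes, or Tbr2, is a T-box transcription factor of unipolar brush cells and lies on chromosome 9 (ENSMUSG00000032446, 118307280 to 118315200), with its upstream sequence printed above. It was at 13.9, 12.7 and 9.96 CPM in WT sedentary and at 15.8, 13.6 and 12.4 CPM in WT exercise mice. In SCA1 sedentary mice it was at 4.80, 8.28 and 6.83 CPM, and in SCA1 exercise mice at 15.3, 7.63 and 8.66 CPM. Of 6 SCA1 mice, 5 lay below all 6 WT mice, and mouse 55 lay above 5 of them.

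With all libraries, the log2FC of Eomes was -0.88 in SCA1 sedentary against WT sedentary mice (SE 0.271, unadjusted p = 0.00674, edgeR adjusted p = 0.302), with groups that did not overlap and an exact permutation p of 0.1. In SCA1 exercise against WT exercise mice it was -0.40 (SE 0.266, edgeR adjusted p = 0.960). Over both activity groups it was -0.64 (SE 0.190, unadjusted p = 0.00527, edgeR adjusted p = 0.276, exact permutation p = 0.0195).

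Without mice 16 and 55, Eomes fell by 0.72 on the log2 scale in SCA1 mice over both activity groups (SE 0.125, unadjusted p = 5.77e-05, edgeR adjusted p = 0.00961). The 4 SCA1 mice were then at 6.83 to 8.66 CPM and the 6 WT mice at 9.96 to 15.8 CPM, without overlap, and the exact permutation p was 0.00476, the smallest that 4 mice against 6 can give. Of all genes, 2.06% were lower without overlap there. Over all settings the edgeR or DESeq2 adjusted p of this difference ran from 0.00961 to 0.581, and the log2FC from -0.82 to -0.55. In the separate activity groups the difference without mice 16 and 55 was -0.67 among sedentary mice (SE 0.177, adjusted p = 0.0740) and -0.77 among exercise mice (SE 0.176, adjusted p = 0.143), and neither passed the test. In bulk RNA, fewer brush cells in the tissue sampled, for whatever reason, and less Eomes RNA per brush cell cannot be told apart.

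Among SCA1 mice, Eomes had a log2FC of 0.67 with exercise (SE 0.271, unadjusted p = 0.0294, edgeR adjusted p = 0.999), with overlapping groups. This difference rested on mice 16 and 55, which were the lowest sedentary and the highest exercise mouse, and without them it was 0.10 (SE 0.195, adjusted p = 0.880). The interaction of genotype and exercise for Eomes was 0.48 with all libraries (SE 0.379, edgeR adjusted p = 1.00) and -0.10 without them (SE 0.247, adjusted p = 0.887).

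**Figure D4:**
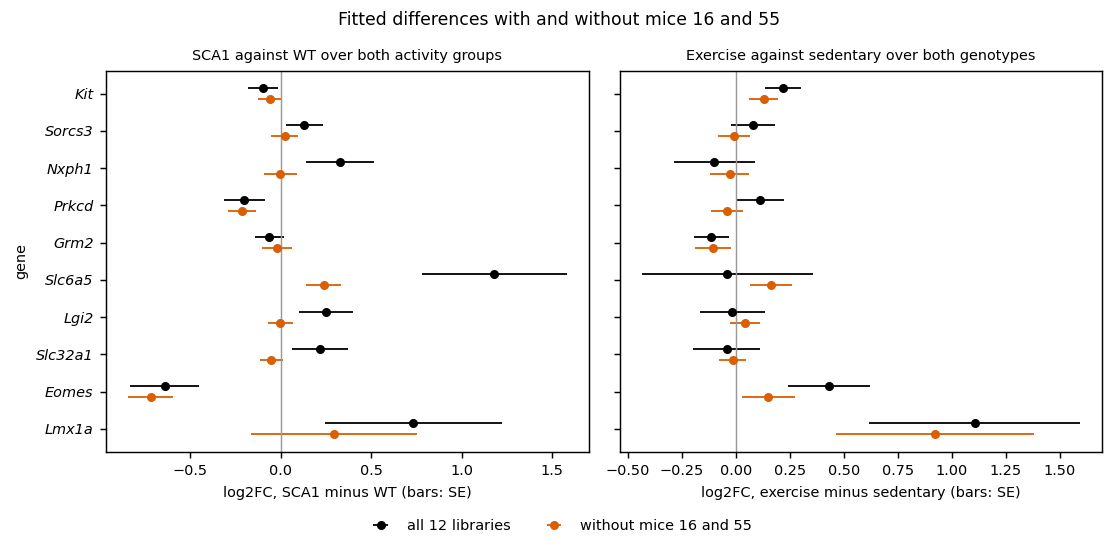
Fitted log2FC with its SE for the 10 markers in SCA1 against WT mice over both activity groups (left) and exercise against sedentary mice over both genotypes (right), with all 12 libraries (black) and without mice 16 and 55 (orange). The Slc6a5 genotype difference moved from 1.18 to 0.24 and that of Eomes from -0.64 to -0.72.

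Lmx1a, a LIM homeobox gene expressed in unipolar brush cells, the roof plate and its derivatives, lies on chromosome 1 (ENSMUSG00000026686, 167516677 to 167676310). It was at 1.17, 1.07 and 0.113 CPM in WT sedentary, 3.20, 1.96 and 1.86 CPM in WT exercise, 2.40, 2.38 and 0.577 CPM in SCA1 sedentary, and 4.80, 1.13 and 2.53 CPM in SCA1 exercise mice. All 3 WT exercise mice were above all 3 WT sedentary mice, with a log2FC of 1.57 (SE 0.712, unadjusted p = 0.0476, edgeR adjusted p = 0.958, exact permutation p = 0.1). The SCA1 groups overlapped with both. The log2FC between genotypes over both activity groups was 0.73 (SE 0.488, adjusted p = 0.631) and 0.29 without mice 16 and 55 (SE 0.457, adjusted p = 0.863). It was 0.42 without mouse 55 alone and 0.46 without WT sedentary mouse 192 alone.

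Genes of the choroid plexus, a tissue that derives from the roof plate, were compared with the brush cell markers across the 12 libraries. Pearson's r of log2 CPM between Lmx1a and each of the 7 choroid plexus genes was 0.85 to 0.93, the highest with Folr1, a folate receptor gene that was also the gene most like Lmx1a among all genes compared. Between Eomes and the same 7 genes r was 0.15 to 0.38, and between Lmx1a and Eomes 0.21. Over the 10 libraries without mice 16 and 55 these ranges were 0.83 to 0.94 for Lmx1a and 0.23 to 0.44 for Eomes. These values describe libraries that share their groups and tissue makeup. The 7 choroid plexus genes summed to 410.2, 148 and 14.2 CPM in WT sedentary mice and to 1931, 826 and 1053 CPM in WT exercise mice. In SCA1 sedentary mice they summed to 817, 1174 and 15.7 CPM, and in SCA1 exercise mice to 1616, 528 and 863 CPM. Both libraries with the least choroid plexus RNA, WT sedentary mouse 192 and SCA1 sedentary mouse 195, also had the least Lmx1a.

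With all libraries, none of the 7 choroid plexus genes was called in WT exercise against WT sedentary mice. Of the 7, 6 had an unadjusted p under 0.05 there, beside 4.69% of all genes. The median log2FC of the 7 was 3.05, beside 0.00 for all genes. The largest difference there was that of Kl, the gene of klotho, at 3.65 (adjusted p = 0.505). Leaving out mice 16 and 55, 2 of the 7 were called higher with exercise in WT mice, where 0.312% of all genes were called. Mice 16 and 55 are in neither WT group but enter the estimate of spread that the 4 groups share. The median log2FC of the 7 in WT mice was 3.03 without them. These were Cldn2, a tight junction gene, by 3.23 (edgeR adjusted p = 0.0237) and Clic6, a chloride channel family gene, by 2.01 (adjusted p = 0.0342), while the log2FC of Lmx1a there was 1.57 (adjusted p = 0.288). Among SCA1 mice, Eomes was at 6.83 CPM in mouse 195, with 15.7 CPM of choroid plexus genes. It was at 7.63 to 8.66 CPM in mice 122, 194 and 198, with 528 to 1174 CPM of these genes. Mouse 16 had the lowest Eomes level of the study, 4.80 CPM, with 817 CPM of these genes. Mouse 55 had 15.3 CPM of Eomes, with 1616 CPM of these genes. Among WT mice, Eomes was lowest (9.96 CPM) in mouse 192, with the least choroid plexus RNA, and highest (15.8 CPM) in mouse 121, with the most. The part of choroid plexus in the Lmx1a and Eomes levels was not tested.

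**Figure D5:**
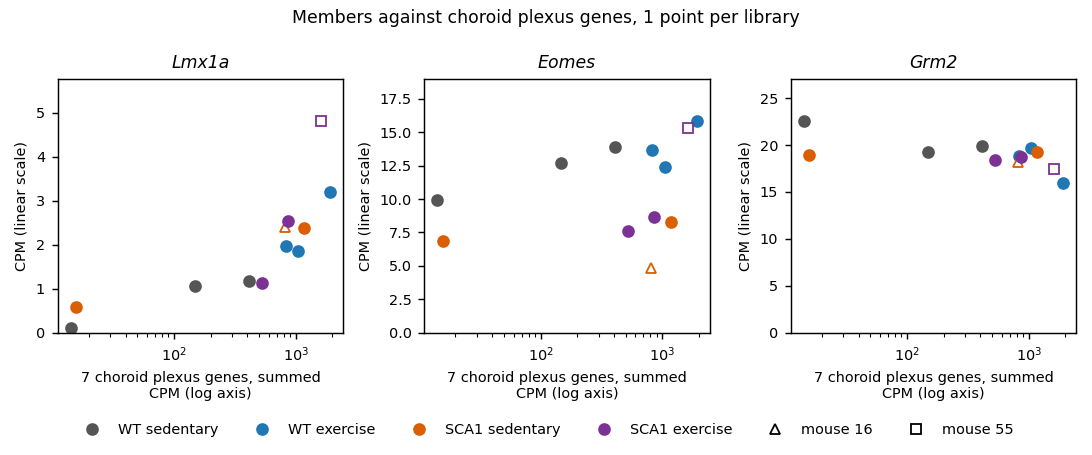
CPM of Lmx1a, Eomes and Grm2 (linear axes from 0) against the summed CPM of 7 choroid plexus genes (log axis), with 1 point per library coloured by group. Lmx1a was lowest, at 0.113 and 0.577 CPM, in the 2 libraries with the least choroid plexus RNA, whereas Eomes splits by genotype apart from mouse 55 (open square, 15.3 CPM) and Grm2 stays between 15.9 and 22.5 CPM.

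The 6 other genes of unipolar brush cells gave no call with all libraries, and their median log2FC in SCA1 sedentary against WT sedentary mice was -0.27. Otx2, a transcription factor gene of brush cells that is also high in choroid plexus, had a log2FC of 0.41 there (adjusted p = 0.627).

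Of 18 genes for ligands, binding partners and relatives of the markers, 17 were tested and 0 called, with a median log2FC of 0.01 in the sedentary comparison. Lmx1b, the closest relative of Lmx1a, had the largest value, 5.07 (SE 1.51, adjusted p = 0.296). It was at 5.58 CPM in mouse 16 and 8.61 CPM in mouse 55 and at no more than 2.00 CPM elsewhere, so its high libraries were those of Slc6a5. The neurexophilin gene Nxph3, with mice 16 and 55 left out, fell by 0.87 in the sedentary comparison (adjusted p = 0.0466) and by 0.70 over both activity groups (adjusted p = 0.0190), whereas Nxph1 had -0.06 and -0.0017.

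Lists for other neurons of the cerebellum and for nearby tissue were measured beside the markers. All 8 Purkinje cell genes were below 0 in SCA1 sedentary against WT sedentary mice, with a median log2FC of -0.77, and 2 of them fell: Calb1, the calbindin gene, by 0.82 (adjusted p = 0.0398) and Pcp4 by 1.17 (adjusted p = 0.0126). Both calls were lost without WT sedentary mouse 116 (adjusted p = 0.308 and 0.0607), without WT sedentary mouse 117 (0.300 and 0.0797) and in the edgeR fit of the 2 groups alone (0.339 and 0.196). The call of Calb1 was also lost without any 1 of 6 other mice (121, 197, 201, 194, 122 or 198), with adjusted p of 0.0707 to 0.130. Apart from mouse 194 these are exercise mice, in neither group compared, and the Calb1 log2FC stayed at -0.82 without each. The 4 groups share 1 estimate of the spread in the fit. Of 20 other settings, Calb1 was called in 11 and Pcp4 in 17. With mice 16 and 55 left out, 5 of the 8 were called in SCA1 sedentary against WT sedentary mice, and their median log2FC was -0.64. Of all genes, 1% were called in that fit and 0.0344% in the fit of all libraries. The 7 granule cell genes had a median of -0.49 in the sedentary comparison with 0 called, led by Cbln1 at -0.63 (adjusted p = 0.166). Without mice 16 and 55 this median was -0.33, again with 0 called. Over both activity groups it was -0.36 with all libraries and -0.11 without these 2 mice. The 4 genes of the cerebellar nuclei and the 9 brainstem genes, 5 of them tested, gave no call with all libraries. In the fit without mice 16 and 55, Slc17a6 of the nuclei list, which encodes a vesicular glutamate transporter, fell by 1.28 in WT exercise against WT sedentary mice (adjusted p = 0.0484). Mice 16 and 55 are in neither of these WT groups and enter the fit through the shared spread. The interneuron and brush cell markers were not tested against these lists.

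Kit is also a gene of mast cells and Eomes of natural killer cells. Mast cell genes other than Hdc were at 0.11 CPM or less in every library, and Hdc was at 3.46 to 5.75 CPM with a log2FC of -0.09 in the sedentary comparison. The 4 natural killer cell genes summed to at most 0.357 CPM, with Gzma at 0.119 CPM or less, and were too low to be tested.

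For each marker, the 2 genes with the most similar log2 CPM over the 12 libraries were sought among genes with an average log2 CPM of at least 1. Eomes was most like the long noncoding RNA gene Gm32113 (Pearson's r = 0.96, and 0.93 over the 10 libraries without mice 16 and 55) and the aquaporin gene Aqp6 (r = 0.96, and 0.98). Kit was most like the transcription factor gene Bhlhe22 (r = 0.94, and 0.90) and Abi3bp (r = 0.93, and 0.90). Prkcd was most like Fam20a (r = 0.93, and 0.85) and Foxp4 (r = 0.93, and 0.88).

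The values that dropped most without mice 16 and 55 were those of the genes most like Slc6a5 and Nxph1. Slc6a5 was most like the RNA-binding protein gene Elavl2 (r = 0.98, and 0.70 without them) and Vapb (r = 0.97, and 0.53). Nxph1 was most like Tmem150c (r = 0.98, and 0.83) and Bcat1 (r = 0.97, and 0.56). Lgi2 was most like Tigar (r = 0.97, and 0.88) and the gap junction gene Gjd2 (r = 0.97, and 0.87), and Slc32a1 was most like Mras (r = 0.97, and 0.86) and Fbxo2 (r = 0.97, and 0.89). Sorcs3 was most like Slc24a3 (r = 0.90, and 0.83) and Gm28119 (r = 0.88, and 0.77), and Grm2 was most like Eipr1 (r = 0.84, and 0.86) and Atg9a (r = 0.83, and 0.81). The second gene beside Folr1 for Lmx1a was Ecrg4 (r = 0.92, and 0.91).

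Between the markers themselves, Slc6a5 and Lgi2 had an r of 0.93 over 12 libraries and 0.36 over 10, and Prkcd and Eomes one of 0.89 and 0.78. All these values are over libraries that share genotype, activity and tissue makeup, and no p is attached to them.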

How the data were processed

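The authors depleted ribosomal RNA, made strand-specific libraries and, per the labels, used FastQC 0.11.9, fastp 0.24.0 and STAR 2.7.10a on GRCm39. They deposited STAR's raw gene counts without normalization. The gene annotation they used was not given in the sources used here. Forward-strand counts were 5.54% to 6.01% of both strands, so reverse-strand counts were used. CPM (TMM library sizes) and log2 CPM (prior count 2) were computed here from the deposited counts. Symbols, positions and exon lengths are from GENCODE M39.

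In R 4.3.3, edgeR 4.0.16 (filterByExpr, TMM, 1 quasi-likelihood model of 4 groups) was run on 12 libraries, after tests on simulated data. DESeq2 1.42.0, RLE factors, 2 other filters, unstranded counts, 2-group fits, bands of mouse numbers as a block, no log2FC limit, and leaving out mice 16 and 55 or each mouse were the alternatives. List counts without mice 16 and 55 were added after seeing the data. Named genes are the markers, the 2 most similar genes of each, Atxn1, and, of each list, those called or the 2 with the largest log2FC; values of 1 such gene are not reported here. Sst, Htr2a, Nrgn, Hoxb4, Dbh, Slc6a2 and Gzma were also named for their levels after these were seen. The markers and lists were chosen with earlier results of these data known.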

Additional observations from a re-analysis of the deposited data

How the results depend on the processing

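Over 20 other settings, 12 of them leaving out 1 mouse each, the 70 log2FC values (10 markers in 7 comparisons) were recomputed 1363 times, and 1264 kept their direction. Of the 99 that did not, 22 came without mice 16 and 55. In SCA1 against WT mice over both activity groups, without mice 16 and 55 the log2FC of Nxph1 was -0.0017, that of Lgi2 -0.0021 and that of Slc32a1 -0.0515, opposite in sign to the values with all libraries. With a block for bands of mouse numbers, that of Slc32a1 was -0.0494. The number of markers called in that comparison was 1 (Eomes) without mice 16 and 55 and 0 in every other setting. Leaving out mouse 55 alone gave Eomes an adjusted p of 0.0679, and DESeq2 gave no marker an adjusted p under 0.0644. Lmx1a has no value under the filter of at least 10 counts in every library, and the 2-group fits cover 4 comparisons. No paired analysis was possible because the groups share no mouse numbers. Bands of mouse numbers are not a batch named in the labels. Lmx1a, with 3 to 121 counts per library, carried the largest counting error of the 10.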
